A study of Mus musculus with 18 samples.

Results

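The comparison set the cerebral cortex of wild type mice 7 days after birth against the cortex of wild type mice 1 day after birth. It used 6 of the 18 libraries of the series, 3 per day, chosen by their labels and not by any measured value, and all genes were considered. Of the 28852 genes in the deposited table, 13347 reached 1 FPKM in at least 3 of the 18 libraries and were tested. FPKM counts the fragments of a transcript per kilobase of its length and relative to the mapped fragments of its library. The series was made to ask how loss of Alg13, a gene of protein N-glycosylation, affects inhibitory interneurons of the cortex, and its other groups were wild type mice at day 30 and mice labelled Alg13 knockout at days 1, 7 and 30. The wild type mice carried no named allele and received no named treatment. The labels name no strain, sex or litter. Replicate numbers are the only sign of separate samples, so the tests measure the spread between these libraries, which may be partly technical. The tissue was taken whole, so neurons, glia, vessels and any attached meninges or neighbouring regions entered each library together.

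In the mouse, the first postnatal week follows the production of most cortical neurons and includes much of the production of glia. Neurons that have reached their layers lose the genes of migration and early differentiation, extend dendrites and assemble synapses, while astrocytes multiply and mature and the precursors of myelin-forming oligodendrocytes begin to differentiate. GABA, the transmitter of inhibitory neurons, changes its action over the same period as neurons exchange chloride importers for chloride exporters, and the subunits of transmitter receptors and ion channels are replaced or added. In RNA from whole tissue, a change in the number of cells of a type and a change in RNA per cell cannot be told apart.

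Each library had between 11703 and 12780 genes at 1 FPKM or more. The table held no read counts, so the absolute depth is unknown, but the relative depth estimated from low values ranged from 0.98 to 1.22 times that of day 7 replicate 1. In a principal component analysis of the 6 libraries the first component held 60.2% of the variance and separated the days, with scores of -60.6 to -24.9 at day 1 and 29.8 to 45 at day 7. Day 1 replicate 3 stood apart on the second component (30.7% of the variance) with a score of -49.4, against 29.5 and 41.4 in the other day 1 libraries. Its correlation with them was 0.893 and 0.903 on the log scale, where they correlated at 0.979 with each other and the day 7 libraries correlated at 0.986 to 0.997. It held transcripts of other tissues. The 14 salivary gland genes summed to 36850.0 FPKM in it and to between 15.7 and 37 in the other libraries, the 10 brown fat genes to 2585 against 21.3 to 45.1, and the 10 skeletal muscle genes to 137 against 3.37 to 7.05. Every result was therefore recomputed without it. Day 7 replicate 3 also departed from its group. Array weights, by which limma gives less weight to libraries that vary more, were 0.0732 for day 1 replicate 3. They were 0.29 for day 1 replicate 1 and 0.576 for day 7 replicate 3. Cdhr1, a cadherin of olfactory bulb projection neurons, measured 1.27, 1.73 and 15.5 FPKM at day 7, and Eomes, which marks intermediate progenitors and olfactory bulb neurons, measured 0.00844, 0.00836 and 3.28 FPKM. In all 12 of the largest rises day 7 replicate 3 was the lowest day 7 library and in all 12 of the largest falls the highest. Each result was therefore also recomputed without it. Xist, the transcript that silences an X chromosome in females, measured 0.065, 157 and 39.4 FPKM at day 1, and the Y-linked Ddx3y 20.5, 0.0309 and 11.7 FPKM. Replicate 1 thus had the pattern of a male, replicate 2 that of a female and replicate 3 both. The day 7 libraries had Xist at 0.0417, 0.0533 and 0.0504 FPKM and Ddx3y at 14.4, 13.1 and 12.3 FPKM. Each of them had the pattern of a male, so the mix of sexes differed between the days.

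**Figure D1:**
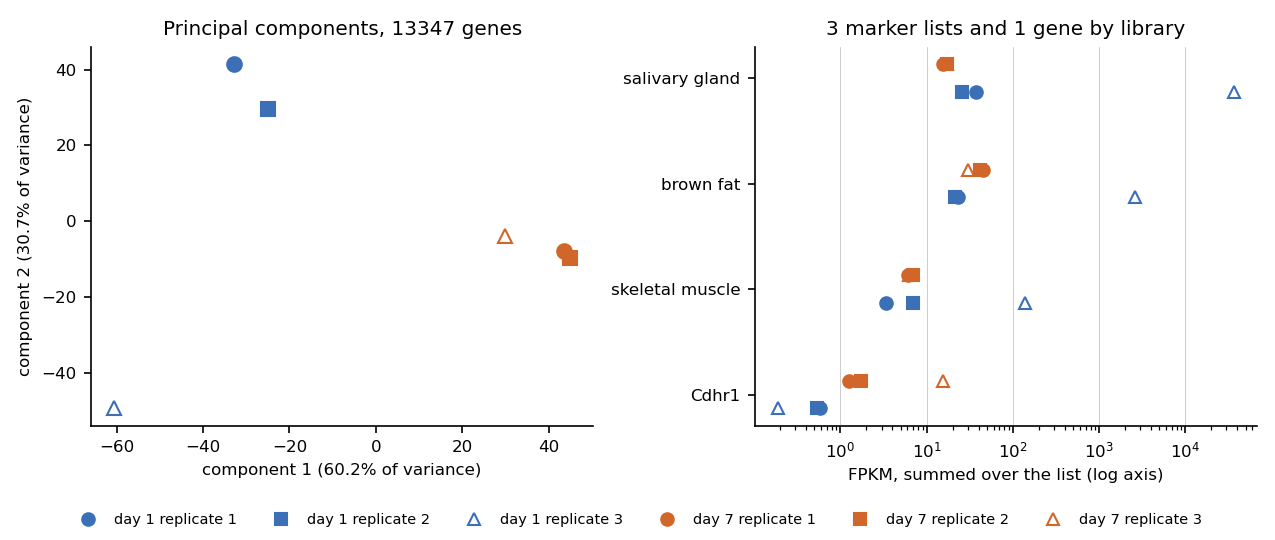
Left, scores of the 6 wild type libraries on the first and second principal components of log2(FPKM + 1), with the share of variance on each axis. Right, FPKM per library (log axis) summed over marker lists of salivary gland, brown fat and skeletal muscle, and of the single gene Cdhr1; day 1 replicate 3 lies apart for the 3 lists and day 7 replicate 3, at 15.5 FPKM, for Cdhr1.

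Between day 1 and day 7 the cortex gained transcripts of synapses, transmitter receptors, ion channels and glia, and lost transcripts of cell division, of immature neurons, of transcription factors and of ribosomes. At an adjusted p under 0.05 (limma, Benjamini-Hochberg over all genes tested), 2787 genes were higher at day 7, which is 20.9% of those tested, and 3741 were lower, which is 28%. Without day 1 replicate 3 the numbers were 3303 (24.7%) and 4079 (30.6%), and 2495 (18.7%) and 3413 (25.6%) passed in the same direction both ways. Without day 7 replicate 3 they were 2548 (19.1%) and 3493 (26.2%). Counts of gene lists given below are to be read against these shares. Rises were the larger changes: 946 of the genes called higher and 591 of those called lower changed by at least 1 on the log2 scale, and 162 against 29 by at least 2. The groups did not overlap, with every day 7 library above every day 1 library or the reverse, for 2968 genes in the rising direction (22.2%) and 3943 in the falling direction (29.5%). The median change of all genes tested was -0.10, or -0.04 without day 1 replicate 3. All log2 changes given here are day 7 minus day 1 on the log2(FPKM + 1) scale with their standard error, on which changes at low FPKM look smaller than they are, and library values are given in the order of replicates 1, 2 and 3.

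The 12 largest rises, chosen among genes with a mean of at least 10 FPKM in the higher group that passed with and without day 1 replicate 3, joined astrocyte genes with genes of excitatory neurons. Gpr37l1, a receptor of astrocytes, measured 0.591, 0.611 and 0.412 FPKM at day 1 and 29.9, 32.7 and 20.0 FPKM at day 7 (log2 change 4.19 ± 0.19, adjusted p = 8.81e-10). Camk2a, the alpha subunit of the calcium-dependent kinase of excitatory synapses, measured 14.9, 10.7 and 3.96 FPKM at day 1 and 195, 207 and 109 FPKM at day 7 (log2 change 4.09 ± 0.35, adjusted p = 2.92e-07). Aqp4, the water channel of astrocyte endfeet, measured 2.47, 1.89 and 1.18 FPKM at day 1 and 47, 43.7 and 43.4 FPKM at day 7 (log2 change 4.03 ± 0.15, adjusted p = 1.2e-10). In each of these genes the lowest day 7 library lay above the highest day 1 library. Slc17a7, which loads glutamate into the vesicles of most cortical excitatory neurons, went from 10.2, 16.3 and 11.2 FPKM to 181, 197 and 167 FPKM (log2 change 3.78 ± 0.22, adjusted p = 1.54e-08). Slc30a3 loads zinc into the same vesicles and went from 0.186, 0.167 and 0.0235 FPKM to 19.3, 22.4 and 8.52 FPKM (log2 change 3.88 ± 0.27, adjusted p = 4.59e-08). The other rises were those of Ddn, a dendritic protein (3.82), Lynx1, a modulator of nicotinic receptors (3.81), the neuronal surface protein Thy1 (3.78), the tubulin Tuba4a (3.66), the astrocyte glutamate transporter Slc1a2 (3.66), Phyhip (3.62) and Nrip3 (3.33).

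The 12 largest falls were led by genes of newly made neurons. Igfbpl1, which is expressed in migrating neuroblasts, measured 65.3, 73.7 and 43.4 FPKM at day 1 and 0.308, 0.294 and 5.89 FPKM at day 7 (log2 change -4.73 ± 0.53, adjusted p = 3.7e-06). Sox11 and Sox4 are transcription factors of early neuronal differentiation. Sox11 measured 112, 105 and 56.7 FPKM at day 1 and 8.67, 7.52 and 17.7 FPKM at day 7 (log2 change -2.93 ± 0.26, adjusted p = 4.17e-07), and Sox4 measured 229, 199 and 120.5 FPKM at day 1 and 22.7, 19.8 and 40.0 FPKM at day 7 (log2 change -2.70 ± 0.24, adjusted p = 4.75e-07). For all 3 genes day 7 replicate 3 held the highest day 7 value and day 1 replicate 3 the lowest day 1 value, and the groups did not overlap. Gpc2, a heparan sulfate proteoglycan of developing neurons, fell by 2.86 on the log2 scale, and Mex3a, an RNA-binding protein of progenitors, by 2.24. The remaining falls included Zbtb12 (-2.54), the cell cycle inhibitor Cdkn1c (-2.49), the nuclear envelope protein Sun2 (-2.44) and the phosphatase Dusp4 (-2.43). The changes of Pnpla2, Lpin1 and Capn6 were smaller without day 1 replicate 3. Pnpla2, a lipase that releases stored fat, measured 7.73, 5.4 and 267 FPKM at day 1 and 3.52, 3.16 and 3.66 FPKM at day 7, and its change of -2.47 became -0.75 without that library (adjusted p = 0.000163) and lost its call when any day 7 library was left out (adjusted p 0.0522 to 0.0645). Lpin1 went from -2.43 to -1.44 and Capn6 from -2.17 to -0.91.

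**Figure D2:**
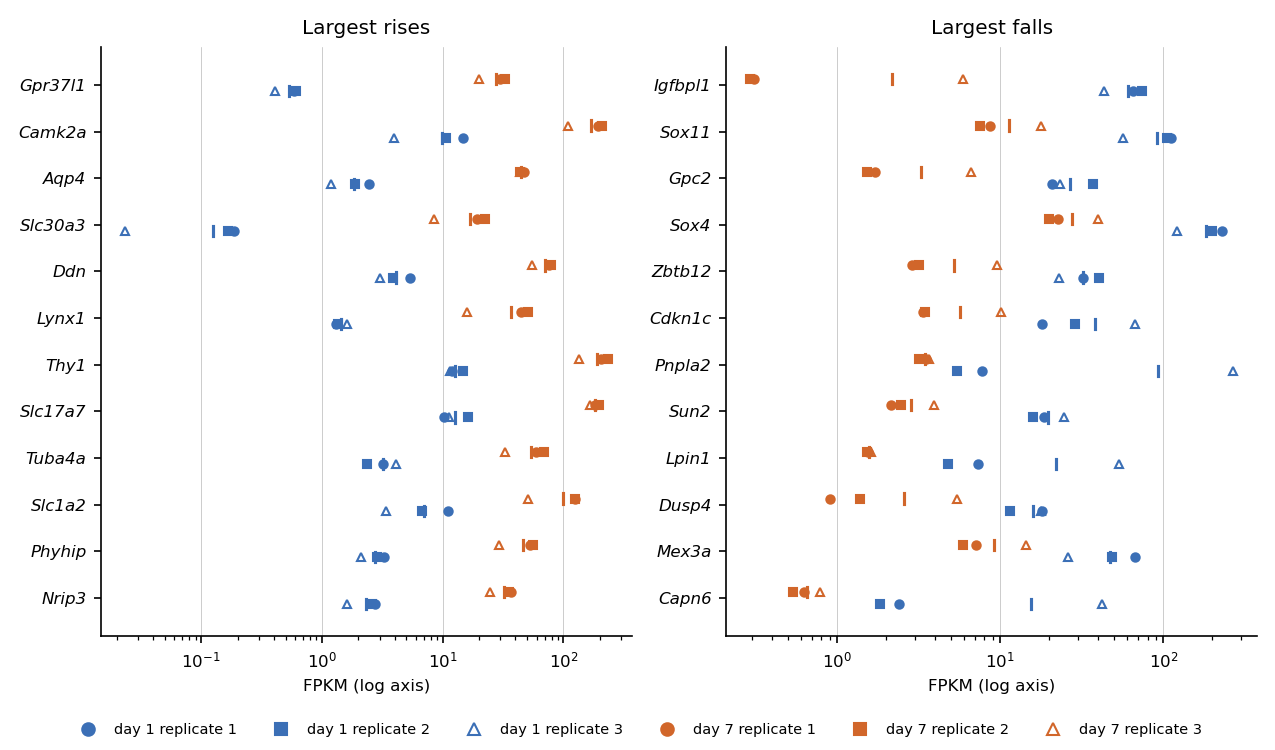
FPKM (log axis) of the 12 largest rises and the 12 largest falls in each wild type library, with day 1 in blue, day 7 in orange, symbols for replicates and short vertical lines for group means. Day 7 replicate 3 (open orange triangles) is the day 7 library nearest to day 1 in all 24 genes, and day 1 replicate 3 (open blue triangles) sets the mean of Pnpla2, Lpin1 and Capn6.

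Cell division genes fell together. Of the 24 genes of DNA replication that passed the filter, from 26 in the table, 22 fell (28% of all genes tested did), with a median change of -0.73, and of 29 genes of mitosis, from 30, 27 fell, with a median of -0.84; the other members did not pass the test. Without day 1 replicate 3 the numbers that fell were 22 and 26. Mcm7, a subunit of the helicase that opens replication origins, measured 26.4, 27.1 and 21.8 FPKM at day 1 and 5.05, 5.01 and 8.16 FPKM at day 7 (log2 change -1.91 ± 0.18, adjusted p = 7.9e-07). Chaf1b, which places histones on new DNA, went from 8.35, 6.73 and 5.14 FPKM to 0.245, 0.512 and 1.62 FPKM (log2 change -2.16 ± 0.22, adjusted p = 1.59e-06). Cdc20, the activator of the anaphase-promoting complex, measured 7.72, 4.51 and 9.14 FPKM at day 1 and 2.09, 1.92 and 2.56 FPKM at day 7 (log2 change -1.31 ± 0.20, adjusted p = 6.72e-05). None of these groups of 3 overlapped. Aurkb, Plk1 and Ccna2, a kinase of chromosome segregation, a kinase of mitotic entry and a cyclin, fell by 1.19, 1.07 and 0.97 on the log2 scale. Dut, which clears dUTP from the nucleotide pool, had means of 11.3 FPKM at day 1 and 11.2 FPKM at day 7 and was not called (adjusted p = 0.947).

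The promoters of these genes are shown because the genes moved together. Sequences are those of RefSeq on GRCm38.p6, which is not the build of the expression table, and 10617 of the genes tested had one. In the 250 bases before the start, CCAAT, the site that the factor NF-Y is known to bind, was found on either strand in 21 of the 23 mitosis promoters (91.3%) and in 36.1% of the promoters of all genes tested. The word TTTGAA, a form of the element through which the DREAM and MuvB complexes are known to time mitotic genes, was found in 9 of 23 (39.1%) against 9.97%. The words TTTCGCGC, TTTGGCGC, TTTCCCGC and TTTGCCGC, forms of the site that E2F factors are known to bind, were found in 5 of 20 DNA replication promoters (25%) against 3.31%. No searched word contains another, and a match describes letters, not binding. Below are the 100 bases before the start of the 4 mitosis genes with the smallest adjusted p, among those that fell with all libraries and without either replicate 3 library, whose window held both CCAAT and TTTGAA; capitals mark these words on either strand, so that ATTGG and TTCAAA are their reverse complements. The windows lie at chr4:118437344-118437443 (minus strand), chr11:99024190-99024289 (minus strand), chr2:164769829-164769928 (plus strand) and chr19:37376282-37376381 (plus strand).
Cdc20: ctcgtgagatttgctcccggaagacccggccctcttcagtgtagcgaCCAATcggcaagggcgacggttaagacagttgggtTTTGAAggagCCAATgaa
Top2a: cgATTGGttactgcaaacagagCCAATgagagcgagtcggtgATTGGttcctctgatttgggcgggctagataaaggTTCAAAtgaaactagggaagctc
Ube2c: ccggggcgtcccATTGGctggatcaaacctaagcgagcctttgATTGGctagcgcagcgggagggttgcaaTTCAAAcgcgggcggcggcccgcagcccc
Kif11: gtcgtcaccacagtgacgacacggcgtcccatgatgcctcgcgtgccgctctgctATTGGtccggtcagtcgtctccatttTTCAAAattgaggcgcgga
The corresponding windows of Rfc3, a loader of the replication clamp, at chr5:151651209-151651308 (minus strand), and of the helicase subunit Mcm6, at chr1:128359706-128359805 (minus strand), held an E2F word, shown in capitals, and belong to DNA replication genes that fell with all libraries and without either replicate 3 library.
Rfc3: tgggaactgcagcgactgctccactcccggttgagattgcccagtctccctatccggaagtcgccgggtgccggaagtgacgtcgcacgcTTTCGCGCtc
Mcm6: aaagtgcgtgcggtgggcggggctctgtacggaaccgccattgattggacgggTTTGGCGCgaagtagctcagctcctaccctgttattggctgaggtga
Cdc20 fell by 1.31, Top2a, which untangles chromosomes, by 1.09, the ubiquitin-conjugating enzyme Ube2c by 1.30, the spindle motor Kif11 by 0.93, Rfc3 by 1.47 and Mcm6 by 0.47 on the log2 scale. Of these, all but Cdc20 were chosen for their windows after their values were seen.

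Progenitor genes split. Of 27 genes of radial glia and intermediate progenitors 12 fell and 3 rose, against 28% and 20.9% of all genes tested. Without day 1 replicate 3, 15 fell and 5 rose, against 30.6% and 24.7%. Factors of neuron production were among those that fell. Insm1, a factor of delaminating progenitors, measured 12, 8.99 and 4.85 FPKM at day 1 and 0.288, 0.496 and 0.58 FPKM at day 7 (log2 change -2.65 ± 0.21, adjusted p = 1.35e-07). Neurog2, the proneural factor of excitatory neurons, went from 1.74, 1.78 and 1.02 FPKM to 0.0133, 0 and 0.0363 FPKM. Nes, Lhx2 and Gas1 fell as well, by 1.03, 0.85 and 1.11 on the log2 scale. Among those that rose, Fabp7, a fatty acid binding protein of radial glia and astrocytes, rose from 281, 385 and 221 FPKM to 490.0, 494 and 836 FPKM (log2 change 1.02 ± 0.25, adjusted p = 0.00319). It was highest in day 7 replicate 3, and without both replicate 3 libraries it was not called (0.58, adjusted p = 0.0562). Lix1 rose by 0.86. Ptprz1, a receptor phosphatase of radial glia and oligodendrocyte precursors, rose by 0.92 and was also not called without day 1 replicate 3 (adjusted p = 0.0683) or day 7 replicate 3 (adjusted p = 0.0556). In the Notch pathway, which keeps progenitors from differentiating, 11 of 22 genes fell and 3 rose, against 28% and 20.9% of all genes tested. The falls included the ligands Dll1 and Jag2 (-0.82 and -0.63) and the nuclear partner Rbpj (-0.69). The 3 that rose included Hey1, a target of the pathway (0.92), and Dner, a neuronal Notch ligand (1.22). Among 20 oncofetal and imprinted growth genes 8 fell and 3 rose, against 28% and 20.9% of all genes tested. Without day 1 replicate 3, 7 fell and 3 rose. The RNA-binding proteins Igf2bp1, Igf2bp2 and Igf2bp3, which are best known from the embryo, fell by 1.10, 1.52 and 1.19 on the log2 scale, while the imprinted RNA Rian and the growth factor Igf1 rose (1.07 and 0.84).

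Of 31 immature neuron genes 15 fell and 3 rose, with a median of -0.79, and without day 1 replicate 3, 20 fell and 2 rose, with a median of -1.12. Without day 7 replicate 3 the numbers were 18 and 3. Dcx, the microtubule protein of migrating neurons, measured 229.8, 263 and 139 FPKM at day 1 and 109.7, 88.9 and 147 FPKM at day 7 (log2 change -0.85 ± 0.23, adjusted p = 0.00618), with the groups overlapping through replicate 3 of each day. Neurod6 and Neurod2, factors of postmitotic excitatory neurons, fell from means of 276 to 72.8 FPKM and 86.8 to 28.8 FPKM (-1.96 and -1.54). Some genes commonly used as markers of young neurons did not fall. Tubb3, a neuronal tubulin, was not called at 946, 1303 and 752 FPKM at day 1 and 877, 891 and 1135 FPKM at day 7. Stmn2, a tubulin-binding protein of growing axons, rose from 682, 848 and 548 FPKM to 1238, 1277 and 1308 FPKM (log2 change 0.90 ± 0.13, adjusted p = 4.4e-05), and Mllt11 rose by 0.54 (0.34 without day 1 replicate 3). Of 28 layer factors 15 fell and 3 rose. Tbr1, of layer 6, fell by 1.07, Tle4 by 1.28 and Pou3f3 by 1.41 on the log2 scale. The layer genes that rose were Rorb, a receptor of layer 4 neurons (0.75), Mef2c (0.87) and Cplx3, a release regulator of subplate neurons (2.07). The tissue label was checked with 10 genes of cortical identity, of which all passed the filter. Of these 7 fell and 2 rose (Slc17a7 and Nrn1), with a median of -0.98, and their summed FPKM was 486 to 796 at day 1 and 402 to 462 at day 7. Emx1, a factor of the dorsal forebrain, had 17, 19.5 and 13.7 FPKM at day 1 and 29, 29.5 and 15.2 FPKM at day 7 and was called higher when day 7 replicate 3 was left out (adjusted p = 0.00604) but not with all libraries.

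The fall extended over transcription factors as a class. The deposited annotation assigned 974 of the tested genes to a transcription factor family, of which 492 (50.5%) fell and 71 (7.29%) rose, with a median of -0.42. Of the 12373 other genes 26.3% fell and 22% rose. Without day 1 replicate 3 the factors that fell and rose numbered 549 and 94, and without both replicate 3 libraries 528 and 94. Zinc finger genes of the C2H2 type made up 418 of them, with 214 lower and 21 higher. In the HMG family, which holds the Sox genes, 23 of 40 fell, and of 37 homeobox genes 17 fell and 5 rose. Among families of at least 10 tested genes, the one with more rises than falls was that of thyroid hormone receptor-like nuclear receptors, with 4 higher and 1 lower of 13. The annotated spliceosome genes likewise fell in 94 of 126 cases and those of ATP-dependent chromatin remodelling in 60 of 95. These annotation groups were chosen after their values were seen and are given as a description.

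**Figure D3:**
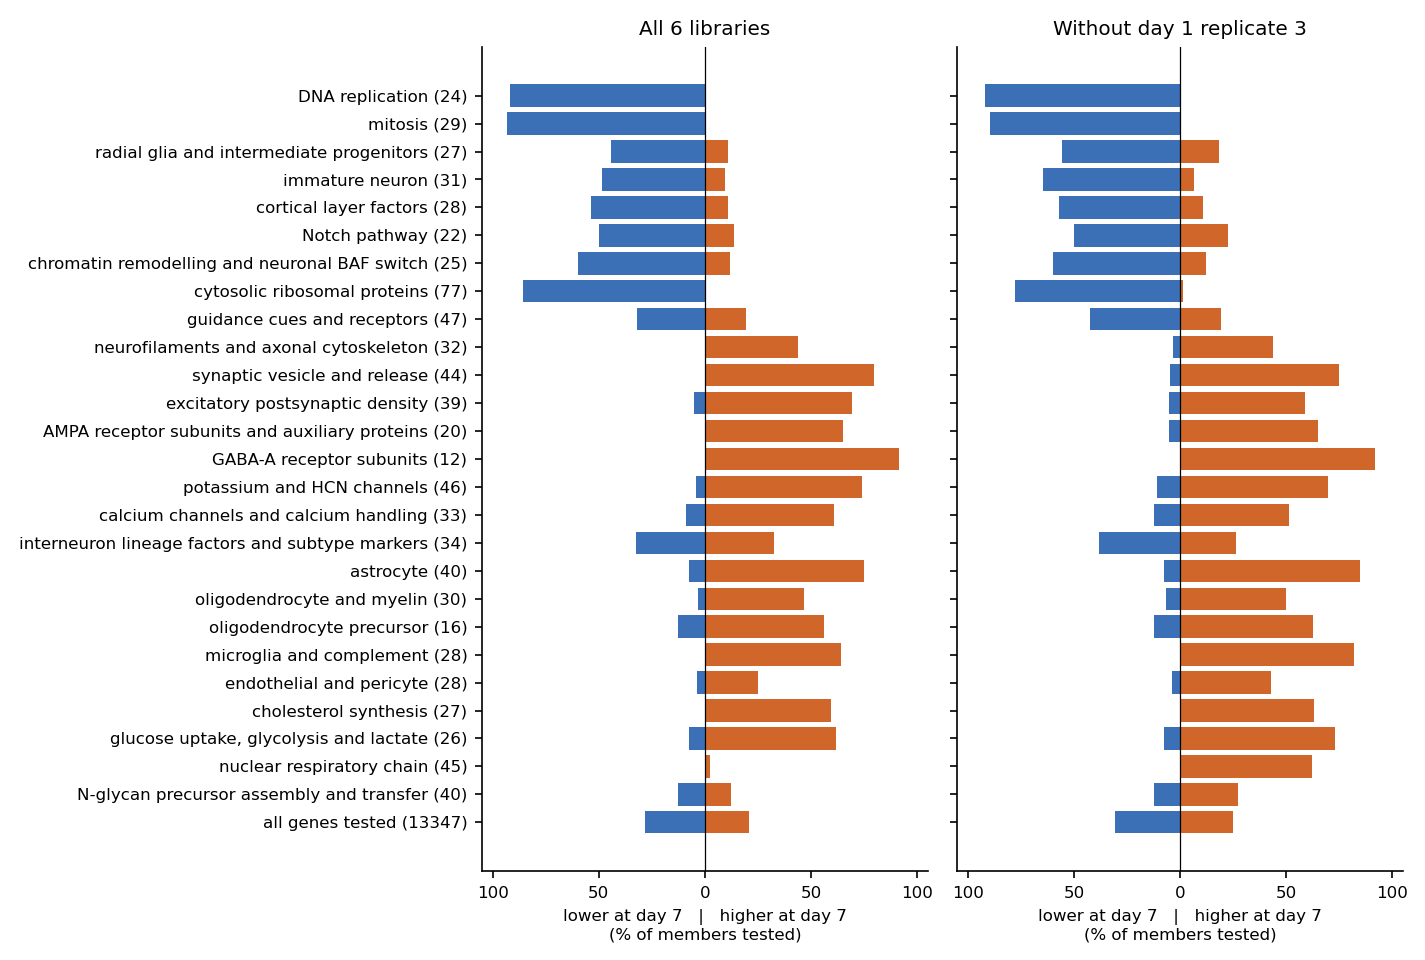
Share of the tested members of each gene list (number in brackets) called lower (blue, to the left) or higher (orange, to the right) at day 7 in wild type cortex, with all 6 libraries and without day 1 replicate 3, and over all genes tested in the bottom row. DNA replication, mitosis and ribosomal proteins lie almost wholly to the left, synaptic, receptor and astrocyte lists to the right, and the nuclear respiratory chain changes from 1 to 28 of 45 members higher.

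Synaptic genes rose on both sides of the cleft. Of 44 genes of the synaptic vesicle and of release 35 rose, against 20.9% of all genes tested, with a median of 1.11, and without day 1 replicate 3, 33 rose and 2 fell. Syt1, the calcium sensor of fast release, measured 45.4, 75.7 and 46.8 FPKM at day 1 and 287, 284 and 221 FPKM at day 7 (log2 change 2.25 ± 0.16, adjusted p = 8.89e-08). Nsf, the ATPase that takes spent fusion complexes apart, measured 24.1, 29.7 and 21.5 FPKM at day 1 and 109, 114 and 94 FPKM at day 7 (log2 change 2.04 ± 0.12, adjusted p = 1.63e-08), and Syn2, which tethers vesicles, rose from 7.8, 11.3 and 5.16 FPKM to 44.8, 45.7 and 48 FPKM (log2 change 2.43 ± 0.20, adjusted p = 2e-07). No groups overlapped for these genes. All 7 vesicular glutamate, zinc and glutamate uptake transporters rose with all libraries, with Slc17a8 at 1.48 and Slc17a6, the vesicular transporter of thalamic and young cortical neurons, at 0.63. Slc17a6 was not called without day 7 replicate 1 (adjusted p = 0.0679) or day 1 replicate 3 (0.40, adjusted p = 0.0687). In the excitatory postsynaptic density 27 of 39 genes rose and 2 fell, with a median of 0.84. Nrgn, the calmodulin-binding protein of dendritic spines, measured 76.1, 103 and 69.1 FPKM at day 1 and 825, 844 and 580.0 FPKM at day 7 (log2 change 3.17 ± 0.23, adjusted p = 9.57e-08), and Camk4 rose from 9.1, 9.95 and 6.05 FPKM to 54.4, 48.3 and 39.6 FPKM (log2 change 2.38 ± 0.19, adjusted p = 1.35e-07). The genes that fell were Homer3 (-1.27), a scaffold, and Ppp1r1b (-1.50), the dopamine-regulated phosphatase inhibitor most abundant in the striatum. The striatal receptor gene Drd1 had means of 5.15 FPKM at day 1 and 3.31 FPKM at day 7 (-0.50, adjusted p = 0.0221), and its call was lost when day 1 or day 7 replicate 1 or 2 was left out (adjusted p 0.0509 to 0.108). The part of striatal tissue in the fall of Ppp1r1b was not tested. The adhesion protein Nlgn3 had a change of 0.45 and was not called.

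Among NMDA receptor subunits, 5 of 6 rose. Grin1, the obligatory subunit, measured 18.5, 24.2 and 13.1 FPKM at day 1 and 66.3, 72.9 and 49.4 FPKM at day 7 (log2 change 1.72 ± 0.19, adjusted p = 2.65e-06). Grin2a, the subunit that joins receptors as synapses mature, measured 0.615, 0.991 and 0.49 FPKM at day 1 and 4.96, 4.67 and 1.74 FPKM at day 7 (log2 change 1.42 ± 0.26, adjusted p = 0.000308), and Grin2b, the subunit of young receptors, measured 19.8, 28 and 13.9 FPKM at day 1 and 39.5, 32.6 and 30.7 FPKM at day 7 (log2 change 0.75 ± 0.29, adjusted p = 0.0429). Grin2b thus had the higher level at both days, at a mean of 34.3 against 3.79 FPKM at day 7, and its call was lost when any library other than day 1 replicate 2 was left out (adjusted p 0.0565 to 0.153). Grin3a and Grin2d rose by 1.36 and 1.32. For the AMPA receptor, Gria1 and Gria3 rose (0.80, or 0.41 without day 1 replicate 3, and 0.86), while Gria2, the subunit that blocks calcium entry, had 36.1, 62.1 and 36.2 FPKM at day 1 and 39.7, 36.9 and 39.4 FPKM at day 7 and Gria4 had means of 10.8 FPKM at day 1 and 12.4 FPKM at day 7, neither called. Of the auxiliary subunits, Cacng3 went from 7.62, 10.1 and 2.97 FPKM to 35.7, 46.1 and 22 FPKM (log2 change 2.24 ± 0.34, adjusted p = 6.59e-05), and Prrt1 and Olfm3 rose by 1.87 and 1.65, whereas Cacng4 had a change of -0.43 that was called only without a replicate 3 library (adjusted p = 0.131 with all 6, 0.0167 without the one of day 1 and 0.0346 without the one of day 7). Of the 14 kainate and metabotropic receptor genes 6 rose, against 20.9% of all genes tested. They included Grik1 (1.33), Grm4 (1.42), Grm7 (1.39) and Grm5 (0.79). Grik2, Grik4 and Neto2 had changes of -0.49, -0.30 and -0.29 and were called lower only without day 1 replicate 3.

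Inhibitory receptors rose with them. Of 12 GABA-A receptor subunits 11 rose, with a median of 1.15, and 11 rose without day 1 replicate 3. Gabrd, a subunit of receptors outside synapses, measured 1.21, 0.852 and 0.504 FPKM at day 1 and 8.41, 10.8 and 4.55 FPKM at day 7 (log2 change 2.21 ± 0.30, adjusted p = 2.19e-05), and Gabra4 rose by 2.15. Day 7 replicate 3 was the lowest day 7 library for Gabrd and Gabra4. Of the subunits known from the embryonic brain, Gabra3 rose by 1.19 and Gabra5 by 0.79 (0.46 without day 1 replicate 3), while Gabra2 was not called (0.38, adjusted p = 0.229). Of 14 genes of the inhibitory synapse and of GABA-B and glycine receptors 9 rose and 1 fell. Both GABA-B receptor subunits rose, Gabbr1 by 0.80 and Gabbr2 by 1.69, as did their auxiliary subunit Kctd16 (2.46), whereas Kctd12 fell (-1.06). Glrb, the beta subunit of glycine receptors, rose from 7.17, 13.7 and 10.6 FPKM to 43.5, 41.4 and 37.1 FPKM (log2 change 1.90 ± 0.17, adjusted p = 4.62e-07), and the anchoring protein Gphn rose by 0.64.

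The chloride transporters that set the action of GABA moved in opposite directions. Slc12a5, which exports chloride from neurons, measured 7.08, 8.5 and 5.1 FPKM at day 1 and 45.7, 47.8 and 33.7 FPKM at day 7 (log2 change 2.47 ± 0.19, adjusted p = 1.11e-07). Slc12a2, which imports chloride, measured 10.8, 9.32 and 41.7 FPKM at day 1 and 7.02, 6.5 and 6.77 FPKM at day 7 (log2 change -1.16 ± 0.36, adjusted p = 0.0134). Its day 1 replicate 3 value was far above the other libraries, and without that library its change was -0.51 (adjusted p = 0.0182), so that it stayed lower at day 7 by less. The kinase Wnk2, one of those that regulate both transporters, fell by 0.51 on the log2 scale. Of the 12 chloride transporters and their regulators 3 rose and 5 fell, against 20.9% and 28% of all genes tested. Of 9 genes of GABA synthesis, packaging and uptake 6 rose. Slc32a1, which fills vesicles with GABA, measured 6.65, 4.39 and 2.32 FPKM at day 1 and 10.9, 12.1 and 8.8 FPKM at day 7 (log2 change 1.16 ± 0.29, adjusted p = 0.00396), and the uptake transporter Slc6a11 of astrocytes rose by 1.80. Gad1, the main GABA-making enzyme, measured 15.1, 9.45 and 4.73 FPKM at day 1 and 15.6, 16.1 and 21.7 FPKM at day 7 (log2 change 0.91 ± 0.31, adjusted p = 0.0237). It was not called without day 1 replicate 3 (adjusted p = 0.114) or without day 7 replicate 3 (adjusted p = 0.0873), and Gad2, the second enzyme, had means of 6.99 FPKM at day 1 and 6.98 FPKM at day 7 (adjusted p = 0.639, or 0.0191 without day 1 replicate 1).

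Interneuron genes, the class the series was designed around, had equal numbers of rises and falls, with 11 of 34 higher and 11 lower (20.9% and 28% of all genes tested), from 37 in the table. Without day 1 replicate 3 the counts were 9 and 13. Genes of specification and migration were among those that fell. Lhx6, a factor of interneurons born in the medial ganglionic eminence, measured 23.6, 24.5 and 13.2 FPKM at day 1 and 9.39, 9.27 and 11.1 FPKM at day 7 (log2 change -0.93 ± 0.18, adjusted p = 0.000454). Dlx2, a factor of all cortical interneurons, measured 16.5, 8.46 and 4.52 FPKM at day 1 and 1.98, 2.03 and 4.12 FPKM at day 7 (log2 change -1.43 ± 0.33, adjusted p = 0.00202), and the migration receptors Cxcr4 and Ackr3 fell by 1.26 and 0.80 on the log2 scale. Markers of mature subtypes were among those that rose. Vip, a peptide of interneurons that target other interneurons, measured 0.124, 0.296 and 0.894 FPKM at day 1 and 8.16, 8.26 and 4.1 FPKM at day 7 (log2 change 2.43 ± 0.28, adjusted p = 4.74e-06). Lamp5, of neurogliaform cells, measured 0.388, 0.153 and 0.0894 FPKM at day 1 and 8.45, 9.66 and 1.72 FPKM at day 7 (log2 change 2.43 ± 0.41, adjusted p = 0.000171), and day 7 replicate 3 was its lowest day 7 library. Calb1 and Cck rose by 2.46 and 1.82, but whole tissue does not show whether interneurons or other neurons carried these rises. Subtype markers did not all rise: Npy, a peptide of somatostatin and neurogliaform cells, fell from 160.4, 261 and 193 FPKM to 54.4, 64.7 and 81.8 FPKM (log2 change -1.59 ± 0.24, adjusted p = 7.42e-05), and the serotonin receptor Htr3a fell by 1.56.

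**Figure D4:**
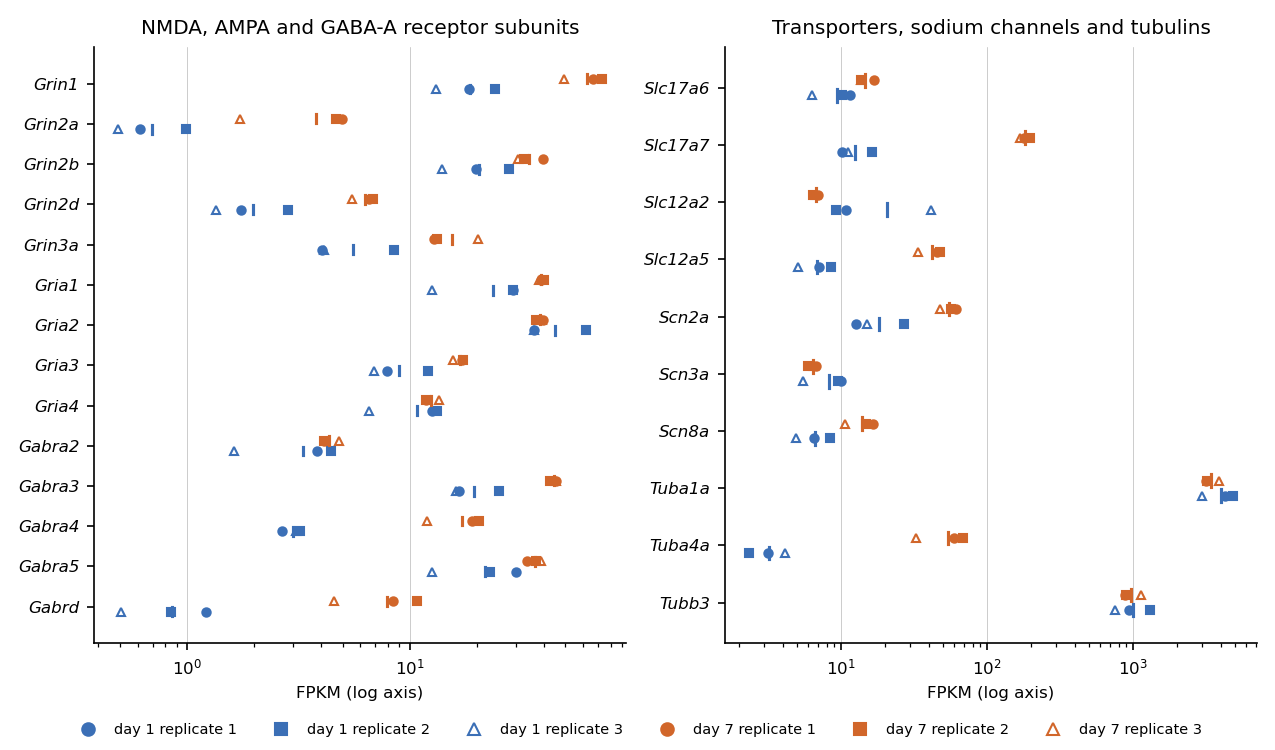
FPKM (log axis) of the glutamate and GABA-A receptor subunits named in the text (left) and of vesicular glutamate and chloride transporters, sodium channels and tubulins (right) in each wild type library, with day 1 in blue, day 7 in orange, symbols for replicates and short vertical lines for group means. The groups lie wholly apart for Grin1, Slc17a7, Slc12a5 and Tuba4a and overlap for Gria2, Gria4, Gabra2 and Tubb3.

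Ion channel genes rose across families, with 8 of 12 sodium channel genes, 34 of 46 potassium and HCN channel genes and 20 of 33 genes of calcium channels and calcium handling higher at day 7. Those that fell numbered 1, 2 and 3, or 1, 5 and 4 when day 1 replicate 3 was left out. Scn2a, the sodium channel of young excitatory axons, measured 12.7, 27.1 and 15.1 FPKM at day 1 and 61.7, 56.7 and 47.6 FPKM at day 7 (log2 change 1.61 ± 0.29, adjusted p = 0.000319). Scn8a, which later takes its place at the axon initial segment, rose by 0.98, and the beta subunit Scn2b by 2.35. Scn3a, the channel of the embryonic brain, had 10.03, 9.55 and 5.47 FPKM at day 1 and 6.78, 5.95 and 6.51 FPKM at day 7 and was not called. Among potassium channels Kcnj9, a subunit opened by G proteins, measured 1.1, 3.03 and 1.53 FPKM at day 1 and 26.4, 28.6 and 11.8 FPKM at day 7 (log2 change 2.98 ± 0.31, adjusted p = 1.81e-06). Kcnj10, the potassium channel of astrocytes, rose by 2.27, Kcnq3 and Kcnq5, subunits of the current that restrains repeated firing, by 1.49 and 1.45, and the pacemaker channel Hcn2 by 1.31. Kcnj2 and Kcna5 fell (-1.18 and -0.83). The calcium sensor Vsnl1 measured 24.3, 34.9 and 27.1 FPKM at day 1 and 283, 298 and 180.5 FPKM at day 7 (log2 change 3.08 ± 0.23, adjusted p = 1.13e-07), and Hpca, of the same family, rose by 2.60. Of the calcium channels, Cacna1a, which drives release at mature terminals, and Cacna1i rose by 1.39 and 1.55, while Cacna1h fell by 1.01 and the internal calcium channels Itpr1 and Ryr1 by 0.91 and 0.90. All 6 subunits of the sodium-potassium pump rose with all 6 libraries. The glial beta subunit Atp1b2 rose by 2.01. Atp1b3 (0.40) lost its call when any library other than day 1 replicate 3 was left out (adjusted p 0.0664 to 0.183).

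Activity-dependent genes included rises and falls. Of 28 immediate-early and activity genes 12 rose and 8 fell, against 20.9% and 28% of all genes tested. Without day 7 replicate 3, 8 rose and 9 fell. Egr3, a transcription factor induced by synaptic activity, measured 1.86, 1.58 and 1.2 FPKM at day 1 and 11.1, 12.5 and 8.48 FPKM at day 7 (log2 change 2.19 ± 0.27, adjusted p = 8.58e-06). Egr1 and Egr4 of the same family rose by 1.62 and 1.52, and the secreted proteins Nrn1 and Scg2 by 1.37 and 0.90. Bdnf, the neurotrophin released by active neurons, was at 0.139, 0.178 and 0.114 FPKM at day 1 and 0.626, 0.569 and 0.993 FPKM at day 7 (log2 change 0.59 ± 0.16, adjusted p = 0.00683). Others of the list moved down: Dusp1, a phosphatase that ends kinase signalling, went from 10.4, 7.74 and 13 FPKM to 4.1, 4.05 and 4.83 FPKM (log2 change -1.07 ± 0.19, adjusted p = 0.000219), and Fosl2, Nr4a3 and Ier5 fell by 1.06, 1.01 and 1.00 on the log2 scale.

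The cytoskeleton changed by isotype. Of 32 axonal cytoskeleton genes 14 rose, against 20.9% of all genes tested. They included the neurofilament subunits Nefl, Nefm and Nefh (2.22, 1.73 and 1.98). Nefl measured 14.4, 20.2 and 11.4 FPKM at day 1 and 78.4, 85.8 and 58.1 FPKM at day 7 (log2 change 2.22 ± 0.17, adjusted p = 1.39e-07). Map1a, a microtubule protein of mature dendrites, measured 8.17, 11.7 and 8.09 FPKM at day 1 and 63.1, 60.2 and 45.8 FPKM at day 7 (log2 change 2.48 ± 0.18, adjusted p = 6.6e-08). Of 14 tubulins 6 rose, against 20.9% of all genes tested. Without day 1 replicate 3, 7 rose and 3 fell. Tuba4a measured 3.18, 2.36 and 4.12 FPKM at day 1 and 59.8, 69 and 32.9 FPKM at day 7 (log2 change 3.66 ± 0.22, adjusted p = 1.95e-08), while the most abundant isotype, Tuba1a, had 4303, 4839.6 and 2997 FPKM at day 1 and 3179.8, 3237 and 3881 FPKM at day 7 and was called lower only without day 1 replicate 3 (-0.42, adjusted p = 0.0423). Tubb2b, of migrating neurons, had a change of -0.51 (adjusted p = 0.0656), which became -0.75 without that library (adjusted p = 0.00388).

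Of 47 guidance cues and receptors 15 fell and 9 rose, shares near the 28% and 20.9% of all genes tested, and without day 1 replicate 3, 20 fell and 9 rose. Under median-ratio scaling of the libraries 12 fell and 12 rose. Epha3, an ephrin receptor, measured 14.7, 20.9 and 12 FPKM at day 1 and 4.44, 3.91 and 6.37 FPKM at day 7 (log2 change -1.50 ± 0.24, adjusted p = 9.45e-05), and Efnb1, Plxna2 and Nrp1 fell by 1.49, 1.31 and 1.27 on the log2 scale. Plxnd1 and Sema7a rose (1.04 and 0.98). Of 30 genes of polysialic acid and adhesion 17 rose and 5 fell. St8sia2, which builds polysialic acid on the adhesion molecule NCAM of young neurons, measured 80.0, 72.9 and 41.2 FPKM at day 1 and 14.6, 14.8 and 30.0 FPKM at day 7 (log2 change -1.68 ± 0.27, adjusted p = 9.89e-05). Within the contactins Cntn2, of early axon tracts, fell from 49.8, 82.8 and 48.9 FPKM to 12.4, 11.1 and 15.9 FPKM (log2 change -2.09 ± 0.18, adjusted p = 2.82e-07), while Cntn1, a partner of sodium channels and of myelin junctions, rose from 6.3, 7.37 and 4.23 FPKM to 29.7, 30.0 and 29.9 FPKM (log2 change 2.17 ± 0.16, adjusted p = 9.28e-08). In Reelin signalling and nuclear movement 6 of 17 fell and 5 rose with all libraries, again near the shares over all genes. Without day 1 replicate 3, 9 fell and 5 rose, against 30.6% and 24.7% of all genes tested. The median went from -0.19 to -0.53. Dab1, the intracellular adaptor of Reelin receptors, and Syne2 were among the falls (-1.12 and -1.33), and the Cdk5 activator Cdk5r2 among the rises (2.49).

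Glial genes rose. Of 40 astrocyte genes 30 rose and 3 fell, with a median of 1.50, and 34 rose without day 1 replicate 3. Slc1a2, the main glutamate transporter, measured 11.1, 6.71 and 3.37 FPKM at day 1 and 124, 124 and 51.2 FPKM at day 7 (log2 change 3.66 ± 0.35, adjusted p = 8.03e-07). Gfap, the intermediate filament of astrocytes, measured 2.33, 0.988 and 0.695 FPKM at day 1 and 18.5, 18.6 and 16.9 FPKM at day 7 (log2 change 3.08 ± 0.21, adjusted p = 4.59e-08), and Gja1, the connexin that couples them, measured 7.51, 14.7 and 12 FPKM at day 1 and 48.7, 54.1 and 50.2 FPKM at day 7 (log2 change 2.11 ± 0.16, adjusted p = 9.52e-08). Day 7 replicate 3 lay between the others for Gja1 and was the lowest day 7 library for Slc1a2. The astrocyte genes that fell included Sox9, an early factor of the lineage, and Thbs1, which promotes synapse formation (-0.93 and -1.63). Glul, the enzyme that makes glutamine, had 152, 105 and 496 FPKM at day 1 and 349, 358 and 218 FPKM at day 7 and was called only without day 1 replicate 3 (1.24, adjusted p = 5.12e-05).

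In the oligodendrocyte lineage 14 of 30 genes of oligodendrocytes and myelin and 9 of 16 precursor genes rose. Cnp, an enzyme of the myelin sheath, measured 4.13, 3.47 and 5.22 FPKM at day 1 and 18.9, 22.8 and 16.6 FPKM at day 7 (log2 change 1.96 ± 0.19, adjusted p = 8.33e-07). Gpr17 and Bcas1, which mark precursors on the way to myelin formation, rose by 1.93 and 2.01. Mobp, of compact myelin, was at 0.49, 0.908 and 0.0127 FPKM at day 7 and was called only without day 7 replicate 3 (adjusted p = 0.104 with all libraries and 0.0156 without it). Sox10, the factor of the whole lineage, had 4.77, 3.5 and 9.73 FPKM at day 1 and 4.45, 5.36 and 5.59 FPKM at day 7 and was not called, while the precursor gene Olig1 rose by 1.13 and Vcan, a matrix proteoglycan, fell by 0.96. Among 28 microglial and complement genes 18 rose (23 without day 1 replicate 3) and the others did not pass. P2ry12, the purine receptor of resting microglia, measured 0.894, 0.938 and 0.712 FPKM at day 1 and 10.2, 11.3 and 6.33 FPKM at day 7 (log2 change 2.44 ± 0.23, adjusted p = 6.01e-07), and Cx3cr1, the fractalkine receptor, measured 1.27, 2.29 and 1.34 FPKM at day 1 and 9.62, 10.1 and 6.6 FPKM at day 7 (log2 change 1.89 ± 0.20, adjusted p = 1.93e-06). Its ligand Cx3cl1, made by neurons, rose from 15.3, 13.2 and 8.43 FPKM to 118, 131 and 69.7 FPKM (log2 change 3.00 ± 0.24, adjusted p = 2.06e-07), and Il34, a ligand of the microglial survival receptor Csf1r, rose by 1.71 as Csf1r itself rose by 1.33. C1qa of the complement cascade was called only without day 1 replicate 3 (0.46 and 0.85).

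Vascular and meningeal lists depended on day 1 replicate 3, whose summed FPKM was 352 for the endothelial and pericyte list (other libraries 173 to 292) and 1117 for the meningeal and matrix list (other libraries 325 to 781). With all libraries 7 of 28 vascular genes rose, near the 20.9% of all genes tested, with a median of 0.02. Without day 1 replicate 3, 12 rose, against 24.7%, with a median of 0.36. For the 24 meningeal and matrix genes the median changed sign, from -0.24 to 0.29, and the number that rose went from 2 to 7. Rgs5, of pericytes, measured 16.7, 27.1 and 23.8 FPKM at day 1 and 60.7, 58.9 and 58.1 FPKM at day 7 (log2 change 1.38 ± 0.18, adjusted p = 1.51e-05), and Slco1a4, a transporter of the blood-brain barrier, rose from 0.223, 0.193 and 0.467 FPKM to 3.34, 3.67 and 1.6 FPKM (log2 change 1.54 ± 0.19, adjusted p = 8.87e-06). Ptgds, a prostaglandin synthase of the meninges, measured 62.1, 80.2 and 37.4 FPKM at day 1 and 155, 225 and 345 FPKM at day 7 (log2 change 1.99 ± 0.32, adjusted p = 0.000104). Of 16 neural matrix genes 6 rose and 1 fell, against 20.9% and 28% of all genes tested. Without day 1 replicate 3, 5 rose and 2 fell, against 24.7% and 30.6%, with a median of 0.01. Hapln1, which links hyaluronan to proteoglycans in perineuronal nets, measured 0.187, 0.128 and 0.0688 FPKM at day 1 and 11.6, 11.7 and 5.59 FPKM at day 7 (log2 change 3.17 ± 0.20, adjusted p = 2.45e-08), and the proteoglycan Bcan rose by 1.77. The choroid plexus gene Ttr had 65.9, 7.77 and 5.77 FPKM at day 1 and 0.236, 0.561 and 0.279 FPKM at day 7, a change of -3.55 that was called only without day 1 replicate 3 (adjusted p = 0.0639 with all libraries and 0.0419 without it), and Aqp1, a water channel of the choroid plexus, had 1.69, 1.83 and 42.6 FPKM at day 1 and 0.429, 0.637 and 1.33 FPKM at day 7 (log2 change -1.98 ± 0.70, adjusted p = 0.0272). The change of Aqp1 was -0.65 without day 1 replicate 3, and it was not called without day 7 replicate 1 (adjusted p = 0.0812) or 2 (adjusted p = 0.0687). Ttr was thus highest in day 1 replicate 1 and Aqp1 in day 1 replicate 3, the library that held transcripts of other tissues. The part that choroid plexus or other tissues in the day 1 libraries had in these values was not tested.

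Metabolic genes changed by pathway. Of 27 genes of cholesterol synthesis and turnover 16 rose, with a median of 0.69, and 17 rose without day 1 replicate 3. Mvd, an enzyme of the mevalonate arm, measured 13.8, 14.5 and 15.9 FPKM at day 1 and 26.5, 26.2 and 33.2 FPKM at day 7 (log2 change 0.91 ± 0.14, adjusted p = 9.76e-05), and Msmo1, of the sterol arm, measured 18.9, 17.9 and 20.7 FPKM at day 1 and 37, 37.5 and 42 FPKM at day 7 (log2 change 0.98 ± 0.13, adjusted p = 1.55e-05). Cyp46a1, through which neurons dispose of cholesterol, rose by 1.42. In glucose use 16 of 26 genes rose. Eno2, the neuronal enolase, measured 20.5, 22.7 and 14.2 FPKM at day 1 and 75.2, 83 and 59.7 FPKM at day 7 (log2 change 1.88 ± 0.19, adjusted p = 1.39e-06), Slc2a3, the neuronal glucose transporter, rose by 1.32, and Pfkfb3, which speeds glycolysis, fell by 1.06. Of 22 genes of ketone body and fatty acid use 10 rose, and 16 rose without day 1 replicate 3, the library in which brown fat genes summed to 2585 FPKM; the part of that tissue was not tested. Oxct1, which activates ketone bodies for burning, measured 47.8, 88 and 64.4 FPKM at day 1 and 249, 259.9 and 212 FPKM at day 7 (log2 change 1.87 ± 0.17, adjusted p = 4.26e-07), and Slc16a1, which carries lactate and ketone bodies, measured 6.2, 5.29 and 8.24 FPKM at day 1 and 32.1, 33.1 and 27.5 FPKM at day 7 (log2 change 2.09 ± 0.26, adjusted p = 1.2e-05).

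The result for the respiratory chain rested on 1 library. Of 45 nuclear genes of the chain 1 rose with all libraries, against 20.9% of all genes tested, with a median of 0.06. Without day 1 replicate 3, 28 rose, against 24.7%, with a median of 0.40. Without day 7 replicate 3 the number was 1, and under quantile normalization and median-ratio scaling of all libraries 5 and 5. Ndufa4, a subunit of cytochrome oxidase, measured 223, 215 and 371 FPKM at day 1 and 350.2, 392 and 325 FPKM at day 7, with day 1 replicate 3 above the other day 1 libraries (adjusted p = 0.0665 with all libraries and 0.00138 without it). Of the 13 protein genes of the mitochondrial genome 3 rose with all libraries, 10 without day 1 replicate 3 and 0 without day 7 replicate 3. The shares of all genes tested that rose in these settings were 20.9%, 24.7% and 19.1%, so the first count was near its share. Cytosolic ribosomal proteins fell: 66 of 77, with a median of -0.78, and 60 without day 1 replicate 3, with a median of -0.60. Rplp0, of the stalk of the large subunit, measured 743, 672 and 1066 FPKM at day 1 and 338, 359 and 414 FPKM at day 7 (log2 change -1.13 ± 0.17, adjusted p = 6.66e-05). Ribosomal protein genes have many near-identical pseudogenes, among which fragments may be divided, so their levels are uncertain.

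Of 25 chromatin remodelling genes 15 fell and 3 rose, against 28% and 20.9% of all genes tested. Ezh2, the methyltransferase of Polycomb complex 2, measured 10.1, 13.1 and 12.3 FPKM at day 1 and 1.72, 1.8 and 3.57 FPKM at day 7 (log2 change -1.96 ± 0.21, adjusted p = 2.05e-06), and its partners Eed and Suz12 fell by 0.80 and 0.76 on the log2 scale. In the BAF complex, whose progenitor subunits are known to be exchanged for neuronal ones, Actl6a, a progenitor subunit, measured 14.1, 9.29 and 9.82 FPKM at day 1 and 4.81, 4.57 and 5.33 FPKM at day 7 (log2 change -1.01 ± 0.14, adjusted p = 2.03e-05), while its neuronal counterpart Actl6b had 39.7, 62.2 and 34.7 FPKM at day 1 and 44.4, 46.8 and 48.3 FPKM at day 7 and was called higher only when day 1 replicate 2 was left out (adjusted p = 0.721 with all libraries and 0.0339 without it). Further neuronal subunits, Dpf1 and Ss18l1, fell (-0.94 and -0.87). Among 14 genes of DNA methylation 5 fell and 2 rose, against 28% and 20.9% of all genes tested. Without day 1 replicate 3, 9 fell and 2 rose. Dnmt1, which copies methylation at replication, fell from 25.3, 28.7 and 19.4 FPKM to 13, 13 and 17.6 FPKM (log2 change -0.71 ± 0.15, adjusted p = 0.00105), and Dnmt3a, which sets new methylation, rose from 6.25, 5.6 and 4.59 FPKM to 11.5, 11.2 and 9.83 FPKM (log2 change 0.87 ± 0.27, adjusted p = 0.0141). Of 28 RNA-binding proteins 10 fell and 4 rose with all libraries, which is not far from the shares over all genes, and the other 14 were not called. Without day 1 replicate 3, 13 fell and 5 rose, against 30.6% and 24.7% of all genes tested. Ptbp1 and Ptbp2, splicing repressors of progenitors and of young neurons, fell by 1.18 and 0.75, Msi1, of progenitors, by 1.22 and Srrm4, which promotes neuronal microexons, by 1.27. Rbfox3, whose protein is the antigen NeuN of mature neurons, measured 4.85, 5.51 and 3.78 FPKM at day 1 and 12.5, 11.5 and 7.42 FPKM at day 7 (log2 change 0.99 ± 0.18, adjusted p = 0.000276), and Elavl4, which stabilises neuronal messages, rose by 1.19.

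In N-glycosylation, the pathway of Alg13, the counts were low and depended on the libraries used. Of 40 genes that build and transfer the lipid-linked precursor 5 rose and 5 fell, against 20.9% and 28% of all genes tested. Without day 1 replicate 3, 11 rose and 5 fell. Under quantile normalization 8 rose and 3 fell. Alg13 itself measured 3.27, 1.93 and 2.79 FPKM at day 1 and 1.92, 1.94 and 1.53 FPKM at day 7 (log2 change -0.38, adjusted p = 0.125), and Alg14, which anchors it in the membrane, rose from 2.17, 4.02 and 5.38 FPKM to 5.92, 6.17 and 6.52 FPKM (log2 change 0.63 ± 0.19, adjusted p = 0.0106). Without day 1 replicate 1 the change of Alg14 was 0.35. Mpi and Pmm1, which supply mannose units, rose by 0.83 and 0.86. The catalytic subunit Stt3a of the oligosaccharyltransferase fell by 0.66 (-0.35 without day 1 replicate 3) and Tusc3, a subunit of its alternative form, rose by 0.70. In the Golgi 7 of 30 genes rose and 6 fell, close to the shares over all genes tested (20.9% and 28%). The sialyltransferase St6gal1 measured 10.3, 11.7 and 9.79 FPKM at day 1 and 2.8, 2.45 and 4.07 FPKM at day 7 (log2 change -1.51 ± 0.18, adjusted p = 6.59e-06), and the fucosyltransferase Fut8 and the galactosyltransferase B4galt6 rose by 0.70 and 1.36.

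The 5 genes with the largest change that were called with all libraries and not without day 1 replicate 3 were Xist (-4.17 and -3.63, adjusted p without it 0.0806), H19, an imprinted RNA of fetal growth (-2.07 and -0.86), Spint2 (-1.85 and -0.66), Thrsp (-1.73 and -0.47) and Eif4ebp1 (-1.69 and -0.71). H19 measured 21.6, 32.2 and 331 FPKM at day 1 and 8.29, 13.9 and 23.5 FPKM at day 7. All 5 were falls and had the same direction without the library, and each also lost its call when day 7 replicate 1 or 2 was left out (adjusted p 0.0546 to 0.113). Xist lost its call as well without day 1 replicate 2, the library with the pattern of a female (-2.65, limma adjusted p = 0.175). The same held without day 7 replicate 3 (0.0703). All day 7 libraries had the pattern of a male, so for Xist sex and day cannot be told apart.

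Wild type mice at day 30 show where some of these genes stood later. The change from day 7 to day 30 shares the day 7 libraries with the comparison described here, so the values are set side by side; between those days 2777 genes rose (20.8%) and 3956 fell (29.6%). Camk2a measured 973 ± 16.6 FPKM at day 30 against 170.4 ± 53.3 at day 7 and 9.83 ± 5.51 at day 1 (SD, n = 3 each). Grin2a reached 14.9 ± 0.889 FPKM and Grin2b 26.9 ± 4.48 FPKM. Slc12a5 measured 90.7 ± 8.11 FPKM and Slc12a2 11.6 ± 0.977 FPKM. Sox11, at 1.52 ± 0.0571 FPKM, and Dcx, at 6.14 ± 0.123 FPKM, were lower at day 30 than the 11.3 and 115 FPKM of day 7. Aqp4, at 31.2 ± 4.6 FPKM, lay below its day 7 mean of 44.7 ± 2.02 FPKM (-0.51 on the log2 scale, adjusted p = 0.00975).

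The same interval in the libraries labelled knockout, which share no library with this comparison, gave 2577 genes higher (19.3%) and 3923 lower (29.4%). Of the 6528 genes called in wild type 6278 had the same sign there and 4791 were called in the same direction. Alg13, the gene named as deleted, measured 2.04 ± 0.862 FPKM at day 1 and 2.35 ± 0.423 at day 7 in the libraries labelled knockout against 2.67 ± 0.676 and 1.8 ± 0.228 in wild type. It was thus not clearly lower under that label, and no source used here tells which part of Alg13 was deleted. The test of the difference between the changes called 1 gene (0.00749%), Ldoc1, while 1681 genes had an unadjusted p under 0.05. Ldoc1, an X-linked gene, measured 0.894, 1.01 and 0.814 FPKM at day 1 and 3.21, 3.18 and 3.98 FPKM at day 7 in wild type (log2 change 1.22 ± 0.11, adjusted p = 6.75e-07) and 1.86, 2.17 and 2.39 FPKM at day 1 and 1.92, 1.99 and 2.45 FPKM at day 7 in the libraries labelled knockout (log2 change -0.01). Its change differed by 1.23 ± 0.16 (adjusted p = 0.0122), and it was not called without wild type day 7 replicate 3 (adjusted p = 0.0526) or without the libraries labelled knockout day 1 replicate 2 (0.063), day 1 replicate 3 (0.0504) or day 7 replicate 1 (0.0787). Without wild type day 1 replicate 2 the test called 40 genes. Side by side, list medians in wild type and in the libraries labelled knockout were -0.84 and -0.69 for mitosis, 1.11 and 1.06 for synaptic vesicle genes and -0.78 and -0.99 for ribosomal proteins. They lay further apart for cholesterol synthesis, at 0.69 and 0.20, where 16 of 27 genes rose in wild type and 6 rose and 4 fell in the libraries labelled knockout. In axonal cytoskeleton genes 14 of 32 rose in wild type, and 7 rose and 11 fell in the libraries labelled knockout. Of all genes tested 20.9% rose and 28% fell in wild type, and 19.3% and 29.4% in the libraries labelled knockout. The axonal counts under that label were near its shares, as was the number of cholesterol genes that rose. No member of either list passed the test of the difference in limma, and 12 and 16 members had an unadjusted p under 0.05 in it. Over all 13347 genes tested, 1681 did. Without day 1 replicate 3 the wild type medians of cholesterol synthesis and axonal cytoskeleton were 0.78 and 0.16, against 0.69 and 0.29 with all libraries. The medians in the libraries labelled knockout were 0.20 and 0.02. These lists were chosen after their values were seen and are given as a description.

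**Figure D5:**
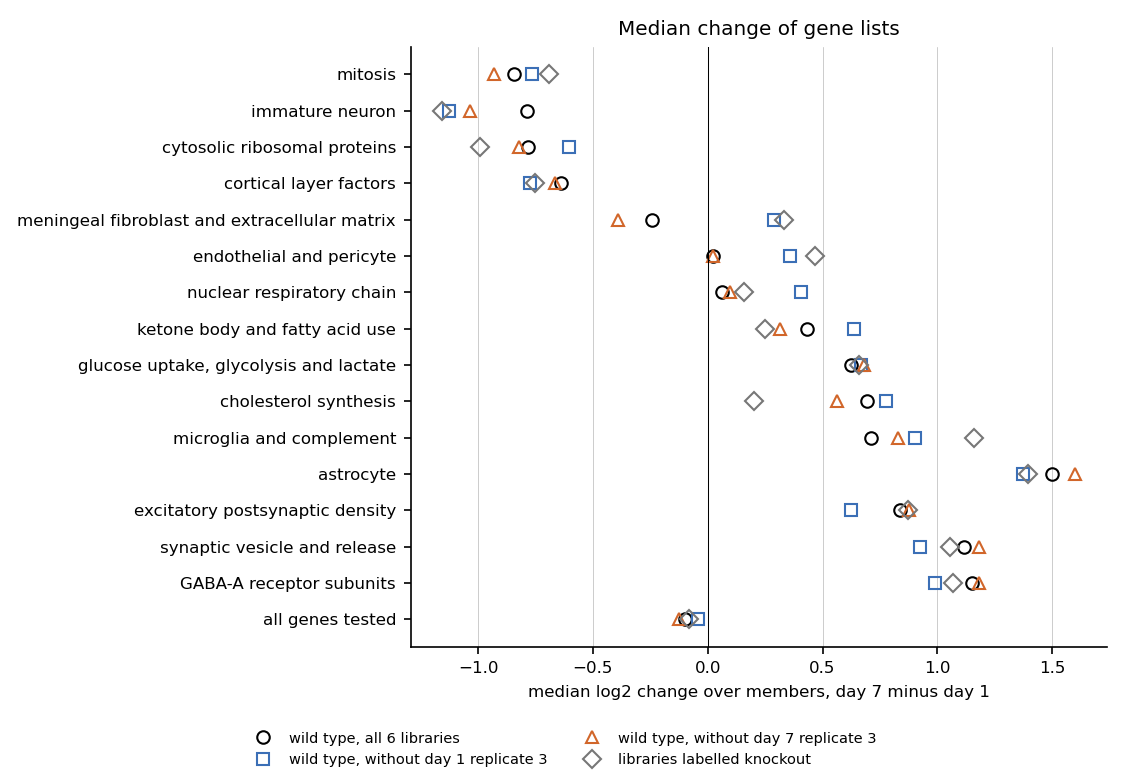
Median log2 change from day 1 to day 7 over the tested members of 15 gene lists and over all genes tested, in wild type with all 6 libraries, without day 1 replicate 3 and without day 7 replicate 3, and in the libraries labelled knockout. The median of the meningeal and matrix list lies at -0.24 with all wild type libraries and at 0.29 without day 1 replicate 3, while mitosis, astrocyte and synaptic lists keep their side in all 4 settings.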

How the data were processed

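RNA was sequenced from the cerebral cortex of 18 samples in 6 groups of 3. The authors deposited a table of FPKM per gene, normalized for transcript length and library depth; the submitters' processing notes name Bowtie2, RSEM 1.3.1, DESeq2 1.4.5 and GRCm39, without saying which step each served. The table gives no read counts, so no counting error could be attached, and since FPKM are relative to all mapped fragments, abundant transcripts of other tissues in day 1 replicate 3 lower its other values.

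From these values, log2(FPKM + 1) was fitted with limma 3.58.1 in R 4.3.3 (group means of all 6 groups, variance trend, Benjamini-Hochberg adjustment, threshold 0.05), after keeping genes at 1 FPKM or more in at least 3 of the 18 libraries. All 6 groups entered so that they share 1 estimate of spread. The contrast was wild type day 7 minus day 1, and its difference from the same contrast in the libraries labelled knockout was tested in the same fit. Exact tests of 3 against 3 libraries cannot fall below 0.1 and were not used. The script was tested on simulated data. Lists are described by their counts and medians over the members that passed the filter. Named genes are the 12 top genes by log2 change in each direction at a mean of 10 FPKM or more that passed with and without day 1 replicate 3 and did not overlap, up to 6 called members of each list in each direction with up to 2 that were not called, all members of receptor, channel and isotype families, the genes of the genotype test and the 5 largest calls that rested on day 1 replicate 3. The genes, the comparison and the lists were chosen with earlier results of these data known. Promoters came from RefSeq on GRCm38.p6, the first one listed for each gene, matched by gene ID. The genes whose promoters are printed, other than Cdc20, and Alg13 fall outside the rule for named genes and were chosen after their values were seen. Some genes that the rule names are not reported here.

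Alternatives were a pseudocount of 0.1, no filter, quantile normalization, median-ratio scaling, array weights, Ddx3y as a covariate for sex, a replicate block, a fit of the 6 libraries alone, a minimum log2 change of 1 and the omission of each library in turn. The omission of both replicate 3 libraries was added after seeing the data.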

Additional observations from a re-analysis of the deposited data

Results flagged for a closer look

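Ldoc1 was the 1 gene whose change from day 1 to day 7 differed between the labelled genotypes by a test of the difference itself, by 1.23 on the log2 scale (limma, adjusted p = 0.0122). It was lower in all 3 wild type day 1 libraries than in all 3 day 1 libraries labelled knockout, and higher at day 7. At day 30 its wild type mean was 0.32 ± 0.0656 FPKM. Groups of 3 libraries are too small for a test of single outlying libraries, so none was made.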

How the results depend on the processing

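The wild type counts of 2787 higher and 3741 lower genes ranged from 2340 to 3303 and from 3024 to 4079 when 1 library was left out, and no gene called with all libraries was called in the opposite direction under any alternative run. Without both replicate 3 libraries the counts were 3132 and 3985. A fit of the 6 libraries alone called 1957 higher and 2401 lower, in which the other 12 libraries no longer share in the estimate of spread. A minimum log2 change of 1 left 946 and 591. The share of calls that were higher was 42.7%, 46.4% under quantile normalization and 50.3% under median-ratio scaling. Array weights called 3494 and 4821 genes, and of 23 named genes that changed sign there, none of them called with equal weights, 2 passed the threshold, Actl6b (-0.31, adjusted p = 0.0214) and Celf5 (-0.25, adjusted p = 0.0331); that setting gave day 1 replicate 3 a weight of 0.0732. Of 667 named genes, between 545 and 652 kept both their direction and their side of the threshold under each alternative, and the up to 27 that changed sign were not called with all libraries.

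Replicate numbers did not pair the libraries: deviations from the group means correlated at 0.0594, -0.047 and 0.00453 for the same numbers. With a replicate block the counts were 2882 and 3993. The genotype test, which called 1 gene, called 0 with the block (2087 genes at an unadjusted p under 0.05 in limma), 0 with a pseudocount of 0.1 (1717), 0 without both replicate 3 libraries (1465), 2 without the filter and 8 with array weights, and between 0 and 40 when 1 library was left out (1037 to 2802 at an unadjusted p under 0.05). The cause was not tested.

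Depth in reads is not known, low genes are understated on the log2(FPKM + 1) scale, and 3 libraries per day, 1 of which held other tissues, limit every estimate.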

Other observations

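Hormone and clock genes that the comparison also reached moved as follows. Of 13 genes of the thyroid hormone axis 6 rose and 2 fell, against 20.9% and 28% of all genes tested. Dio2, the astrocyte enzyme that activates the hormone, measured 5.12, 3.26 and 8.55 FPKM at day 1 and 19.8, 19.6 and 9.2 FPKM at day 7 (log2 change 1.38 ± 0.32, adjusted p = 0.00223), and the receptor Thrb rose from 0.581, 0.788 and 0.899 FPKM to 3.47, 3.56 and 2.05 FPKM (log2 change 1.18 ± 0.18, adjusted p = 5.75e-05). Hr, a known target of the hormone in brain, rose by 0.96, and the transporter Slco1c1 by 1.08. The retinoid receptor Rxra fell by 1.00 on the log2 scale (-0.57 without day 1 replicate 3), and the fall of Rxrg (-1.66) lost its call when day 1 replicate 1 or 2 or day 7 replicate 1 or 2 was left out (adjusted p 0.0643 to 0.153). Of 24 glucocorticoid-responsive and clock genes 10 rose and 5 fell, against 20.9% and 28% of all genes tested. The glucocorticoid receptor Nr3c1 measured 2.79, 2 and 5.92 FPKM at day 1 and 10.9, 9.7 and 5.65 FPKM at day 7 (log2 change 1.14 ± 0.28, adjusted p = 0.00292), while Fkbp5, a gene it induces, fell from 17.4, 17.5 and 28.7 FPKM to 6.57, 7.16 and 10.5 FPKM (log2 change -1.28 ± 0.19, adjusted p = 6.36e-05). The clock repressors Per1, Per2 and Cry1 fell (-0.79, -0.93 and -0.84), and Nr1d1, Cry2 and Hlf rose (1.66, 0.55 and 1.42). The labels name no hour of collection, and its part in these values was not tested.

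Among 21 regulators of cell death 5 fell and 2 rose, with the share that fell near the 28% of all genes tested. Trp53, the tumour suppressor p53, measured 16.9, 22.3 and 19.6 FPKM at day 1 and 5.76, 5.77 and 8.24 FPKM at day 7 (log2 change -1.45 ± 0.14, adjusted p = 9.54e-07). The survival gene Bcl2 fell by 0.76 and its relative Bcl2l2 rose by 0.48. Of 26 genes of the unfolded protein response 3 rose and 6 fell, against 20.9% and 28% of all genes tested. Without day 1 replicate 3, 8 rose and 3 fell, while without day 7 replicate 3, 1 rose and 4 fell. The stress sensors Eif2ak3 and Ern1 fell in both settings (-0.95 and -0.99). Of 30 secreted growth factors 10 rose and 3 fell, against 20.9% and 28% of all genes tested. Without day 1 replicate 3, 13 rose and 6 fell. Wnt7b, a ligand of the Wnt pathway, measured 33.9, 46.3 and 26.5 FPKM at day 1 and 7.17, 6.84 and 22.6 FPKM at day 7 (log2 change -1.64 ± 0.33, adjusted p = 0.000762), and midkine, Mdk, fell by 1.26, while Pdgfb, Fgf9 and Igfbp5 rose by 1.34, 0.85 and 1.24. Tfrc, which takes up iron, rose from 22.5, 25 and 19.3 FPKM to 44.5, 43.7 and 36.5 FPKM (log2 change 0.87 ± 0.19, adjusted p = 0.00148) and was the 1 called gene of 7 in the red blood cell list. In a list of 17 genes of neighbouring brain regions 4 rose and 5 fell, near the 20.9% and 28% of all genes tested. Without day 1 replicate 3, 3 rose and 9 fell, against 24.7% and 30.6%.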
